A study of Mus musculus with 12 samples.

Results

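The Hippo pathway core genes were the 10 genes encoding the kinases, coactivators and DNA-binding partners of that pathway, chosen by symbol from the whole table: Stk3 and Stk4, Lats1 and Lats2, Yap1 and Wwtr1, and Tead1, Tead2, Tead3 and Tead4. All 10 were found among the 54532 genes of the count table, and all 10 passed the filter on low counts that left 24642 genes. Read counts came from whole kidneys of 12 C57BL/6 mice, all 18 days old, in 4 groups of 3. Every mouse carried 1 Pkd1 RC allele, a missense change that lowers the function of polycystin-1. Noncystic mice had a floxed Pkd1 allele in trans but no Cre (Pkd1 RC/F, called Pkd1 RC/+ here), and cystic mice also carried Ksp-Cre, whose kidney-specific cadherin promoter acts in tubule epithelium and removes the floxed allele there (Ksp-Cre Pkd1 RC/F, called Pkd1 RC/-). Each Pkd1 state was studied with an intact Pkd2 gene (Pkd2 +/+) or with both Pkd2 copies lacking the binding motif for miR-17 in the 3′-UTR (Pkd2 Δ17/Δ17), an edit present in all cells. The RNA mixes every cell type of the kidney, so fewer cells of a type and less RNA per cell cannot be told apart.

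In the Hippo pathway, STK3 and STK4 activate LATS1 and LATS2, which in turn phosphorylate the coactivators YAP (Yap1) and TAZ (Wwtr1). Phosphorylated YAP and TAZ are held in the cytoplasm and degraded. Unphosphorylated YAP and TAZ enter the nucleus and bind the TEAD proteins, which recognise DNA and have little activity of their own. The pathway limits organ size and tubule cell proliferation, and it is controlled largely at the level of protein. An mRNA count therefore gives neither the amount of each protein nor its activity.

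Total counts ran from 18800307 to 24453033 per mouse. The top 10 genes of a library held 8.91% to 9.76% of its reads without cysts and 4.86% to 5.93% with cysts. Levels are given as counts-per-million (CPM) values, scaled by edgeR's trimmed mean of M values (TMM), and their spread as the SD over 3 mice. A gene was called changed when the Benjamini-Hochberg adjusted p of edgeR's quasi-likelihood test, taken over all 24642 genes, was under 0.05. Differences are log2 fold changes with their standard error (SE). Pkd2 itself stood at 217, 194 and 219 CPM in the noncystic Pkd2 +/+ mice against 277, 286 and 271 CPM in the noncystic Pkd2 Δ17/Δ17 mice. In cystic kidneys it stood at 232, 233 and 213 CPM with the motif and at 337, 336 and 307 CPM without it. The groups did not overlap in either background. The rise passed the test in cystic kidneys (log2 fold change 0.53, SE 0.08, edgeR adjusted p = 0.00249) and not in noncystic kidneys (0.40, SE 0.08, edgeR adjusted p = 0.771), where DESeq2 gave 0.00151. In noncystic kidneys the unadjusted edgeR p was 8.21e-05, and edgeR without a cutoff on low counts gave an adjusted p of 0.00898. The rise did not differ between the backgrounds in the test of their interaction (0.13, SE 0.11, edgeR adjusted p = 0.818). Xist, the RNA of the inactive X chromosome, was at least 430.7 CPM in 1, 2, 2 and 1 mice of the groups in the order noncystic Pkd2 +/+, noncystic Pkd2 Δ17/Δ17, cystic Pkd2 +/+ and cystic Pkd2 Δ17/Δ17, and at most 7.74 CPM in the other mice. The labels give no sex.

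In GENCODE M21 (GRCm38) the kinase genes lie at chr15:34875496-35178921 (Stk3), chr2:164070322-164155524 (Stk4), chr10:7681214-7716460 (Lats1) and chr14:57689662-57758388 (Lats2). The coactivators lie at chr9:7931999-8004596 (Yap1) and chr3:57455649-57575910 (Wwtr1). The TEAD genes lie at chr7:112679318-112906807 (Tead1), chr7:45215753-45233644 (Tead2), chr17:28331671-28350817 (Tead3) and chr6:128224288-128300823 (Tead4). Tead1 and Tead2 share a chromosome but are not neighbours. Stk4, Lats1, Tead1 and Tead2 are on the plus strand and the other core genes on the minus strand. Counts cover exons of every annotated isoform together.

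The edit in this design removes the miR-17 motif of Pkd2 alone. The miR-17 seed, its match in Pkd2 and the same letters in core genes are shown here. The first line below is mature mouse miR-17-5p from RefSeq (GRCm38.p6, chr14:115043684-115043706, plus strand), with its seed, bases 2 to 8, in capitals. The other lines are stretches of annotated 3′-UTR (GENCODE M21, GRCm38) from Pkd2, the edited gene, and from the core genes that hold the 7-letter seed match, which is in capitals.
miR-17-5p: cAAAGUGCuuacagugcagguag
Pkd2: aattttctGCACTTTaatttatt
Wwtr1: gtcagggtGCACTTTactgggaa
Tead1: cctcagtgGCACTTTacacatat
Lats2: ccaagtgcGCACTTTccgggcac
The windows lie at chr5:104503813-104503835 (Pkd2, plus strand), chr3:57457181-57457203 (Wwtr1, minus strand), chr7:112899961-112899983 (Tead1, plus strand) and chr14:57700309-57700331 (Lats2, minus strand), all in the longest annotated 3′-UTR of the gene. The match in Pkd2, Wwtr1 and Tead1 is followed by an A, the base that extends a seed match to its 8-letter form, and the match in Lats2 is not. Yap1, Tead2, Tead3, Tead4, Lats1, Stk3 and Stk4 hold no match. Thus 3 of the 10 core genes carried these letters, beside 12.2% of 21123 protein-coding genes, whose median 3′-UTR was 1085 bases long. The 3′-UTRs of the 3 core genes with a match were 3277 (Wwtr1), 8147 (Tead1) and 3207 bases (Lats2). A match is a description of the letters and not a measured binding site.

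Whether cystic disease changes the mRNA levels of Hippo components was asked first between cystic and noncystic mice with intact Pkd2. Of the 10 core genes, 5 rose and none fell: Tead2, Tead3, Stk4, Tead1 and Wwtr1. They were 3 of the 4 TEAD genes, 1 of the 2 upstream kinases and 1 of the 2 coactivators, while Yap1, Tead4, Lats1, Lats2 and Stk3 did not pass the test. Beside the 5 of 10, 31.1% of all genes tested were called in this comparison, 16.9% higher and 14.2% lower. All 10 core genes had an average log2CPM above 1, and among the 13692 tested genes whose log2CPM averaged 1 or more the called share was 48.7%, so the number of core genes called was close to that of abundant genes as a whole. The groups did not overlap for the same 5 genes, beside 41.7% of all genes. The median log2 fold change of the 10 was 0.18, and that of all genes was 0.02.

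**Figure D1:**
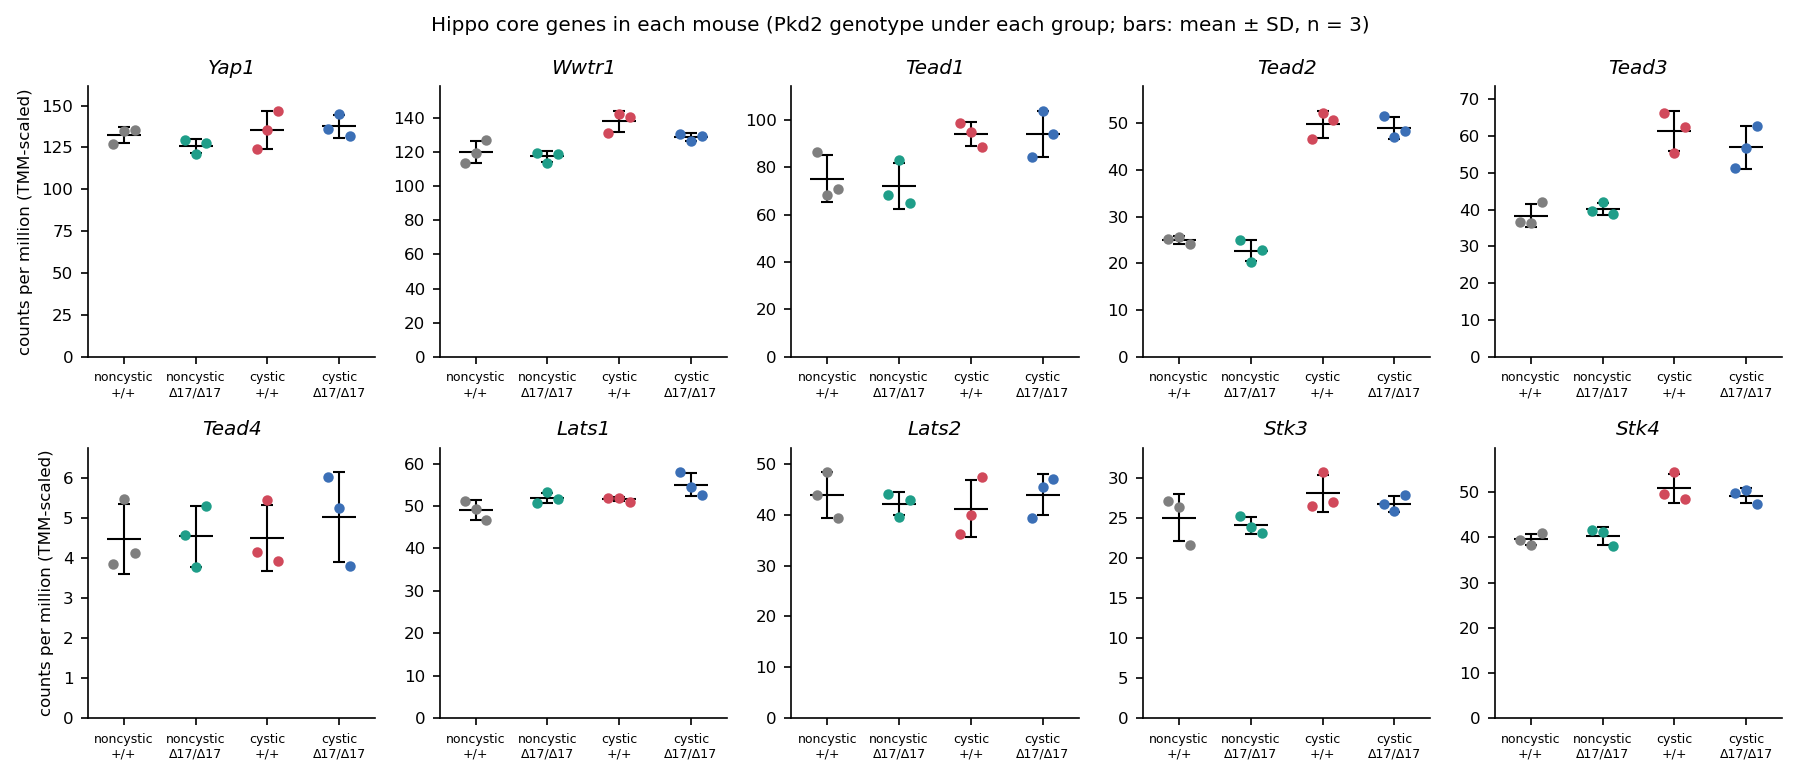
Level of each Hippo core gene in CPM (TMM-scaled, linear axes from 0) in each of the 12 mice, 1 point a mouse, with the group mean and SD (n = 3). The cystic mice of both Pkd2 genotypes lie above all noncystic mice for Tead2, Tead3 and Stk4, and the 4 groups lie together for Tead4 and Lats2.

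Tead2, a TEAD factor known from early embryos and neural progenitors, had the largest change. Its level was 25.1, 25.7 and 24.1 CPM in the noncystic Pkd2 +/+ mice and 46.6, 52.1 and 50.8 CPM in the cystic Pkd2 +/+ mice. Each cystic mouse was far above each noncystic mouse, with nothing between 25.7 and 46.6 CPM. This was a log2 fold change of 0.997 (SE 0.09, edgeR adjusted p = 3.83e-07), or a fold of 1.996 with a 95% confidence interval from 1.75 to 2.28. With Pkd2 Δ17/Δ17 the gene stood at 24.96, 20.4 and 22.9 CPM in noncystic mice and at 51.6, 47.1 and 48.4 CPM in cystic mice. These groups too were apart (log2 fold change 1.11, SE 0.09, edgeR adjusted p = 5.06e-07).

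Tead3, a TEAD gene best known from placenta and epithelia, read 36.7, 36.3 and 42.0 CPM in noncystic and 66.4, 55.5 and 62.3 CPM in cystic Pkd2 +/+ mice. The lowest cystic mouse was above the highest noncystic mouse, and the log2 fold change was 0.68 (SE 0.10, edgeR adjusted p = 3.32e-05). In the Pkd2 Δ17/Δ17 mice it read 39.5, 42.2 and 39.0 CPM without cysts and 51.2, 56.9 and 62.9 CPM with cysts. The change there was 0.50 (SE 0.10, edgeR adjusted p = 0.000883), again with no overlap.

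Tead1, the TEAD gene with the most reads in these kidneys, varied more from mouse to mouse. Noncystic Pkd2 +/+ mice had 86.5, 68.3 and 70.9 CPM, and cystic Pkd2 +/+ mice had 98.9, 94.97 and 88.7 CPM. The gap between the groups was small, because noncystic mouse 19 (86.5 CPM) came close to cystic mouse 27 (88.7 CPM). The log2 fold change was 0.32 (SE 0.11, edgeR adjusted p = 0.0302). Levels were 68.5, 83.1 and 65.0 CPM in noncystic and 84.4, 104 and 93.9 CPM in cystic Pkd2 Δ17/Δ17 mice (log2 fold change 0.38, SE 0.11, edgeR adjusted p = 0.0161). The call with intact Pkd2 was lost when the level of Xist entered the fit (0.28, edgeR adjusted p = 0.0656), and without noncystic mouse 20 or 21 or cystic mouse 25 or 26 in turn, with values from 0.24 to 0.32. Without mouse 22, 24 or 29 in turn it was lost with Pkd2 Δ17/Δ17 (0.31 to 0.34).

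Tead4, linked to trophectoderm and muscle, was the rarest core gene. It had 3.84, 5.47 and 4.12 CPM in noncystic and 4.14, 5.43 and 3.91 CPM in cystic Pkd2 +/+ mice, from raw counts between 69 and 125 over all 12 mice. The groups lay on top of each other, with a log2 fold change of 0.01 (SE 0.22, edgeR adjusted p = 0.990) whose sign turned with the scaling. Its 95% interval, -0.47 to 0.48, would hold changes as large as those of Tead1 or Wwtr1. Pkd2 Δ17/Δ17 mice had 4.58, 3.76 and 5.28 CPM without cysts and 6.01, 5.23 and 3.80 CPM with cysts, which also overlapped.

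Of the coactivators, Yap1 was level between the groups. Its values were 127, 135 and 135 CPM in noncystic and 124, 135 and 147 CPM in cystic Pkd2 +/+ mice, and the cystic mice spanned the noncystic ones. The log2 fold change was 0.03 (SE 0.08, edgeR adjusted p = 0.795), with a 95% interval for the fold from 0.916 to 1.14. In the Pkd2 Δ17/Δ17 mice Yap1 stood at 129, 121 and 128 CPM without cysts and at 136, 145 and 132 CPM with cysts. These groups did not overlap, but the difference did not pass the test (0.13, SE 0.08, edgeR adjusted p = 0.269).

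Wwtr1, which encodes TAZ, had 114, 119 and 127 CPM in noncystic and 131, 142 and 141 CPM in cystic Pkd2 +/+ mice. The highest noncystic mouse lay just under the lowest cystic mouse. The log2 fold change was 0.20 (SE 0.07, edgeR adjusted p = 0.0324), the smallest of the 5 calls. With Pkd2 Δ17/Δ17 its levels were 119, 114 and 119 CPM in noncystic and 131, 126 and 129 CPM in cystic mice, without overlap and without passing the test (0.13, SE 0.07, edgeR adjusted p = 0.188). The Wwtr1 call was lost with DESeq2's size factors as the scaling (edgeR adjusted p = 0.0748), with no cutoff on low counts (0.0909), with the 2 compared groups fitted alone (0.114) and without mouse 19, 20, 22, 23, 26 or 27 in turn (log2 fold change 0.16 to 0.19).

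The ratio of 2 genes within a mouse does not depend on the scaling of the library, and was chosen after the values had been seen. Wwtr1 reads per Yap1 read were 0.895, 0.885 and 0.938 in noncystic and 1.06, 1.05 and 0.957 in cystic Pkd2 +/+ mice. The cystic mice were all higher (difference of the means 0.116, two-sided exact permutation p = 0.10, the smallest that 3 against 3 mice can give). In Pkd2 Δ17/Δ17 mice the ratio was 0.925, 0.938 and 0.932 without cysts and 0.961, 0.871 and 0.982 with cysts, so that the groups overlapped.

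Among the kinases, Stk4 (MST1) and its paralogue Stk3 (MST2) differed in their result. Stk4 had 39.3, 38.4 and 40.8 CPM in noncystic and 49.6, 54.4 and 48.4 CPM in cystic Pkd2 +/+ mice (log2 fold change 0.36, SE 0.08, edgeR adjusted p = 0.00156). The groups were well apart. In Pkd2 Δ17/Δ17 mice it had 41.6, 41.1 and 38.1 CPM without cysts and 49.9, 50.4 and 47.3 CPM with cysts (0.29, SE 0.08, edgeR adjusted p = 0.0111), a call that was lost without noncystic mouse 24 (0.25, edgeR adjusted p = 0.0611).

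Stk3 had 27.1, 26.3 and 21.6 CPM in noncystic and 26.4, 30.7 and 27.03 CPM in cystic Pkd2 +/+ mice, which overlapped (0.17, SE 0.10, edgeR adjusted p = 0.251). In the Pkd2 Δ17/Δ17 mice its levels were 25.2, 23.9 and 23.1 CPM without cysts and 26.7, 25.8 and 27.8 CPM with cysts, apart but not past the test (0.15, SE 0.10, edgeR adjusted p = 0.328). The 95% intervals of Stk3 and Stk4 with intact Pkd2, -0.05 to 0.38 and 0.20 to 0.52, shared part of their range. Reads of Stk4 per Stk3 read overlapped as well, at 1.45, 1.46 and 1.89 in noncystic and 1.88, 1.77 and 1.79 in cystic Pkd2 +/+ mice (two-sided exact permutation p = 0.40), so a difference in response between the paralogues was not shown.

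Lats1 and Lats2, the kinases that act directly on YAP and TAZ, did not pass the test in either comparison of cystic with noncystic mice. Lats1 stood at 51.2, 49.3 and 46.6 CPM in noncystic and 51.9, 51.9 and 51.0 CPM in cystic Pkd2 +/+ mice (0.07, SE 0.07, edgeR adjusted p = 0.497). With Pkd2 Δ17/Δ17 it stood at 50.7, 53.2 and 51.7 CPM in noncystic and 58.0, 54.6 and 52.5 CPM in cystic mice (0.09, SE 0.07, edgeR adjusted p = 0.461). Both pairs of groups overlapped and lay within a narrow range.

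Lats2 had 43.9, 48.3 and 39.3 CPM in noncystic and 36.3, 39.8 and 47.3 CPM in cystic Pkd2 +/+ mice (log2 fold change -0.09, SE 0.11, edgeR adjusted p = 0.583). In Pkd2 Δ17/Δ17 mice it had 44.0, 39.6 and 42.9 CPM without cysts and 39.3, 45.4 and 46.9 CPM with cysts (0.06, SE 0.11, edgeR adjusted p = 0.767). The groups overlapped in both. Lats2 counts are uncertain, because 2955 bases of its annotated exons (42.4%) are also assigned to Gm49361 on the same strand, a model listed at 0 reads in all 12 mice, and 39.9% of its 100-base stretches occur in that model. The other 9 core genes shared no 100-base stretch with a transcript of another gene.

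In total 4 of the 10 core genes rose and none fell between cystic and noncystic mice with Pkd2 Δ17/Δ17, namely Tead2, Tead3, Tead1 and Stk4, beside 23% of all genes (12.8% higher, 10.2% lower) and 37.7% of those whose log2CPM averaged 1 or more. The groups of 7 core genes did not overlap, beside 37.9% of all genes. The interaction, which asks whether the response differed between the Pkd2 genotypes, was called for 0 of 10 core genes (0.0122% of all genes), with unadjusted p from 0.208 (Tead3) upward, and DESeq2 and limma also called 0. The interaction of Tead3, the most negative of the 10, was -0.18 (SE 0.13, edgeR adjusted p = 0.782), with a 95% interval from -0.46 to 0.11, and that of Tead4 had the interval -0.53 to 0.81.

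The absolute scaling matters for genes with small changes. Scaled to library totals instead of TMM, 8 of the 10 core genes were called with intact Pkd2, with Yap1 (0.19, edgeR adjusted p = 0.0458), Lats1 (0.23, edgeR adjusted p = 0.0208) and Stk3 (0.32, edgeR adjusted p = 0.0214) added to the 5. That scaling moved the median log2 fold change of all genes from 0.02 to 0.18, and the split of all calls from 4170 higher and 3495 lower to 6251 higher and 2468 lower. Relative to those medians, Yap1 lay 0.01 above under TMM and 0.02 above under library totals. Lats2 turned from -0.09 to 0.07 in its log2 fold change but lay -0.11 from the median under either scaling. Tead2, Tead3 and Stk4 were called under all 20 alternatives with intact Pkd2, at 0.95 to 1.16, 0.62 to 0.84 and 0.31 to 0.52. With Pkd2 Δ17/Δ17, library totals also called 8 of the 10. Yap1 (0.28, edgeR adjusted p = 0.00693), Wwtr1 (0.29, edgeR adjusted p = 0.00308), Lats1 (0.24, edgeR adjusted p = 0.0227) and Stk3 (0.31, edgeR adjusted p = 0.0348) were added there. The median log2 fold change of all genes moved from -0.0032 to 0.15 in that comparison. The fit of limma with library totals called 8 in each Pkd2 genotype.

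**Figure D2:**
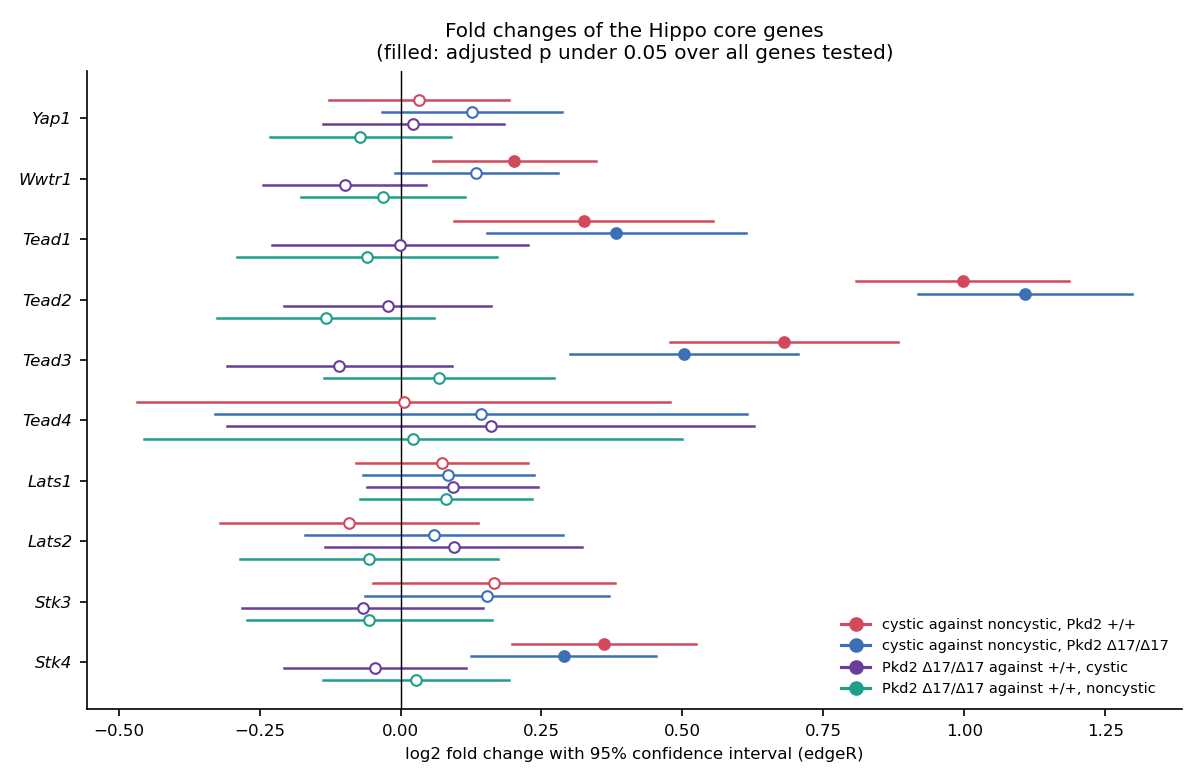
Log2 fold change of each core gene in 4 comparisons, with the 95% confidence interval of edgeR's fit as a line; filled points have an adjusted p under 0.05 over all genes tested. Filled points are found for Tead2, Tead3, Tead1 and Stk4 in both comparisons of cystic with noncystic kidneys, for Wwtr1 in that with intact Pkd2, and for no gene in the comparisons of the Pkd2 genotypes.

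The effect of removing the Pkd2 motif was the second question. In cystic kidneys it was called for 0 of the 10 core genes, beside 2.23% of all genes (1.19% higher, 1.04% lower) and 3.78% of those whose log2CPM averaged 1 or more. The log2 fold changes ran from -0.11 (Tead3, SE 0.09, edgeR adjusted p = 0.679) to 0.16 (Tead4, SE 0.22, edgeR adjusted p = 0.816), with a median of -0.01. None of the 10 had an unadjusted p under 0.05, and DESeq2 and limma also called 0. Tead2, the gene with the largest change with cysts, differed by -0.02 (95% interval -0.21 to 0.16) between cystic Pkd2 Δ17/Δ17 and cystic Pkd2 +/+ mice, and Yap1 by 0.02 (-0.14 to 0.18).

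The groups of 2 core genes did not overlap in cystic kidneys, beside 19% of all genes. Wwtr1 was lower in each Pkd2 Δ17/Δ17 mouse than in each Pkd2 +/+ mouse, with the nearest mice at 130.8 and 130.9 CPM (-0.10, SE 0.07, edgeR adjusted p = 0.571). Lats1 was higher in each Pkd2 Δ17/Δ17 mouse (52.5 to 58.0 CPM, against 51.0 to 51.9 CPM), with a log2 fold change of 0.09 (SE 0.07, edgeR adjusted p = 0.630). The comparisons of cystic Pkd2 +/+ mice with noncystic mice and with cystic Pkd2 Δ17/Δ17 mice share the cystic Pkd2 +/+ mice, so a chance deviation of those mice enters both. Side by side, Wwtr1 was 0.20 higher with cysts and -0.10 with the deletion, Tead3 0.68 and -0.11, Stk4 0.36 and -0.05, Tead2 0.997 and -0.02, and Tead1 0.32 and -0.0011.

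In noncystic kidneys 0 of the 10 core genes were called (0.00406% of all genes), none had an unadjusted p under 0.05, and the groups of all 10 overlapped, beside 10.8% of all genes without overlap. The log2 fold changes ran from -0.13 (Tead2, SE 0.09, edgeR adjusted p = 0.801) to 0.08 (Lats1, SE 0.07, edgeR adjusted p = 0.851). The core genes with the miR-17 seed match, Wwtr1, Tead1 and Lats2, changed by -0.03, -0.06 and -0.06 in noncystic and by -0.10, -0.0011 and 0.09 in cystic kidneys. Their own matches were not edited, so these changes do not test those sites.

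Per length of exon, the order of the levels shifted with cysts. The length joins all annotated exons of a gene over its isoforms, 4.779 kb for Wwtr1 and 9.257 kb for Yap1. The order between genes depends on it. By this measure Wwtr1 was the most abundant core gene in all 4 groups, at 25.1 ± 1.40 CPM per kb in noncystic and 28.9 ± 1.29 CPM per kb in cystic Pkd2 +/+ mice (SD, n = 3). Yap1 followed at 14.3 ± 0.511 and 14.6 ± 1.24 CPM per kb. In mean CPM, Wwtr1 exceeded Yap1 only in cystic Pkd2 +/+ mice (138.0 against 135.5 CPM), and Yap1 was higher in the other groups (132.4 against 120.0 CPM in noncystic Pkd2 +/+ mice). Tead2 stood 8th of the 10 in noncystic Pkd2 +/+ mice, at 5.22 ± 0.176 CPM per kb, and 3rd in cystic Pkd2 +/+ mice, at 10.4 ± 0.602 CPM per kb. Tead3 moved from 6th to 4th place. In noncystic Pkd2 +/+ mice the 3rd to the 8th place were held by Stk4, Lats1, Lats2, Tead3, Tead1 and Tead2. Their means lay between 5.22 and 6.74 CPM per kb, and each gene in that order overlapped the next in its values over mice. In cystic Pkd2 +/+ mice Tead2 overlapped Tead3, and Stk4 overlapped Tead3. Tead4 was last in all groups, at 1.25 ± 0.243 and 1.25 ± 0.228 CPM per kb. With all its reads divided by its unshared exon length alone, Lats2 would stand at 10.9 ± 1.12 and 10.3 ± 1.40 CPM per kb, above the other kinases. That figure holds only if no read from the shared bases was counted to Lats2, which was not checked.

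Summed over the 4 TEAD genes, the level per kb was 17.7 ± 0.417 CPM in noncystic and 27.8 ± 0.281 CPM in cystic Pkd2 +/+ mice, a ratio of 1.57. It was 17.3 ± 0.439 and 27.1 ± 0.660 CPM per kb with Pkd2 Δ17/Δ17, a ratio of 1.56. The mice of each pair of groups were well apart (two-sided exact permutation p = 0.10 each, the smallest possible). Tead2 made up 29.5% ± 1.35 of that sum in noncystic and 37.5% ± 2.5 in cystic Pkd2 +/+ mice. The share of Tead1 was 31.2% ± 3.36 and 25.01% ± 1.13. Neither share overlapped between the groups (two-sided exact permutation p = 0.10 each), and shares of the same sum are not independent. The share of Tead3 overlapped between the groups, at 32.3% ± 2.82 and 33.0% ± 2.76. Reads of Tead2 per Tead1 read were higher in every cystic than in every noncystic Pkd2 +/+ mouse (two-sided exact permutation p = 0.10). Those of Tead3 per Tead1 read overlapped (two-sided exact permutation p = 0.20), so an unequal rise of Tead3 and Tead1 was not shown. By group mean, the most abundant TEAD gene per kb was Tead3 in noncystic and Tead2 in cystic Pkd2 +/+ mice. In single mice, Tead1 led in noncystic mouse 19 (35.1%) and Tead3 in cystic mouse 25 (35.2%, Tead2 34.7%). In noncystic mice Tead1 overlapped both Tead2 and Tead3. This order depends on annotated exon lengths, and by CPM Tead1 was highest (75.2 and 94.2 CPM).

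**Figure D3:**
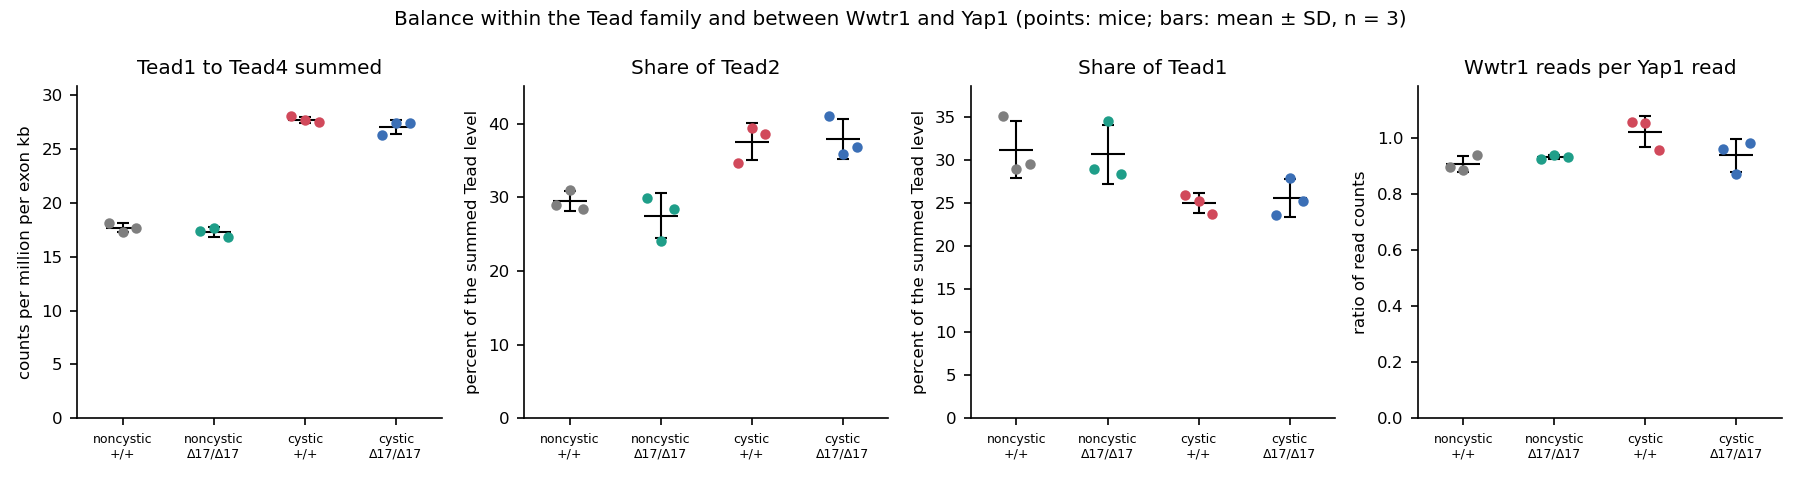
From left to right: summed level of Tead1 to Tead4 in CPM per kb of exon, percent of that sum from Tead2, percent from Tead1, and Wwtr1 reads per Yap1 read, for each mouse (points) with the group mean and SD (n = 3). The summed TEAD level of every cystic mouse is above 26 and that of every noncystic mouse below 19, and the Tead2 share is higher and the Tead1 share lower in all cystic mice than in the noncystic mice of the same Pkd2 genotype.

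The genes whose levels followed the core genes most closely over the 12 mice were found among 13692 genes. For Tead2 they included Trim35 (Pearson's r of log2CPM 0.992) and Gpr27 (0.992), for Wwtr1 they were Kars (0.973), Crtap (0.971) and Cd248 (0.961), and for Yap1 they were Otud1 (0.906), Hnrnpa0 (0.849) and Tcea1 (0.839). The 12 points include cystic and noncystic mice, so r includes the difference between them, and its part in r was not tested. Within the core genes, Tead2 went most closely with Stk4 (0.931) and Tead3 (0.891), and Yap1 most closely with Wwtr1 (0.607).

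The remaining pathway genes were taken as 2 lists. The regulators, 45 genes acting on or beside the core (adaptors, other kinases, atypical cadherins and angiomotins, LIM, STRIPAK and RASSF proteins, and Vgll cofactors), had 44 members tested. With intact Pkd2, 18 rose with cysts, 2 fell and 24 did not pass the test (median log2 fold change 0.23). The called share was 45.45%, beside 31.1% of all genes and 48.7% of those whose log2CPM averaged 1 or more. Among the regulators that rose with no overlap, the smallest p-values belonged to Ajuba (1.27, SE 0.10, edgeR adjusted p = 1.68e-07), a LIM protein that restrains the LATS kinases, and Vgll3 (2.19, SE 0.19, edgeR adjusted p = 3.25e-07), a cofactor that binds TEAD in place of YAP. Fjx1, a Golgi kinase homologous to four-jointed, followed at 1.78 (SE 0.17, edgeR adjusted p = 6.77e-07) and the atypical cadherin Fat1 at 0.92 (SE 0.10, edgeR adjusted p = 3.45e-06). Amot, an angiomotin that holds YAP at cell junctions, fell by 0.43 (SE 0.10, edgeR adjusted p = 0.00257), and the STRIPAK subunit Slmap, which recruits a phosphatase against STK3 and STK4, fell by 0.23 (SE 0.07, edgeR adjusted p = 0.0186), a call lost with library totals and without mouse 21 or 27 in turn (-0.21 and -0.22).

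The other list held 21 genes known as transcriptional targets of YAP and TAZ in other cells, of which Fjx1, Ptpn14 and Amotl2 are also among the regulators. With intact Pkd2, 14 rose, 3 fell and 4 did not pass the test, with a median log2 fold change of 0.60, beside 16.9% of all genes called higher, 14.2% called lower and 48.7% called among those whose log2CPM averaged 1 or more. By p-value, the leading rises were Tgfb2 (2.24, SE 0.20, edgeR adjusted p = 3.31e-07), a transforming growth factor, F3 (1.41, SE 0.12, edgeR adjusted p = 3.38e-07), the tissue factor of coagulation, the matrix gene Ccdc80 (1.53, SE 0.14, edgeR adjusted p = 3.83e-07) and Fjx1. The 3 that fell were Igfbp3 (-0.88), Nt5e (-0.72) and Dock5 (-0.33), the last a call lost with library totals and without mouse 19, 26 or 27 in turn (-0.30 to -0.26). The classical targets, named after their values were seen, were unequal. Ankrd1 had 10.6, 10.8 and 8.60 CPM in noncystic and 44.1, 62.8 and 66.7 CPM in cystic mice (2.53, SE 0.31, edgeR adjusted p = 7.85e-06). Ccn1 rose too (1.46, SE 0.28, edgeR adjusted p = 0.000677). Ccn2 did not pass the test, at 163, 166 and 141 CPM against 206, 144 and 189 CPM (0.20, SE 0.17, edgeR adjusted p = 0.422).

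Removal of the Pkd2 motif in cystic kidneys was called for 1 regulator and 1 target, beside the 2.23% of all genes. Vgll3 was 18.7, 19.3 and 21.05 CPM in cystic Pkd2 +/+ and 11.3, 11.2 and 13.0 CPM in cystic Pkd2 Δ17/Δ17 mice, and fell by 0.73 (SE 0.18, edgeR adjusted p = 0.0421). F3 was 80.9, 84.2 and 80.5 CPM against 49.2, 52.7 and 69.8 CPM, and fell by 0.52 (SE 0.12, edgeR adjusted p = 0.0340). The Pkd2 genotypes did not overlap for either gene, but neither call held in all alternatives. The Vgll3 call was lost in limma's fit with library totals (limma adjusted p = 0.0792) and without mouse 21, 23, 24, 26, 27, 28 or 29 in turn (-0.7435 to -0.6787). The F3 call was lost with the 2 compared groups fitted alone (edgeR adjusted p = 0.0788) and without mouse 26, 27, 28 or 29 in turn (-0.53 to -0.42). In noncystic kidneys the deletion was called for 0 of 44 regulators and 0 of 21 targets, beside 0.00406% of all genes, so these counts say nothing particular to the lists. The median over the 21 targets was -0.21 in cystic and 0.05 in noncystic kidneys, beside 0.0008 and 0.01 over all genes. As for the core genes, the cystic Pkd2 +/+ mice enter both this deletion comparison and that of cystic with noncystic mice. A chance deviation of those mice would enter the rise with cysts and the fall with the deletion alike.

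**Figure D4:**
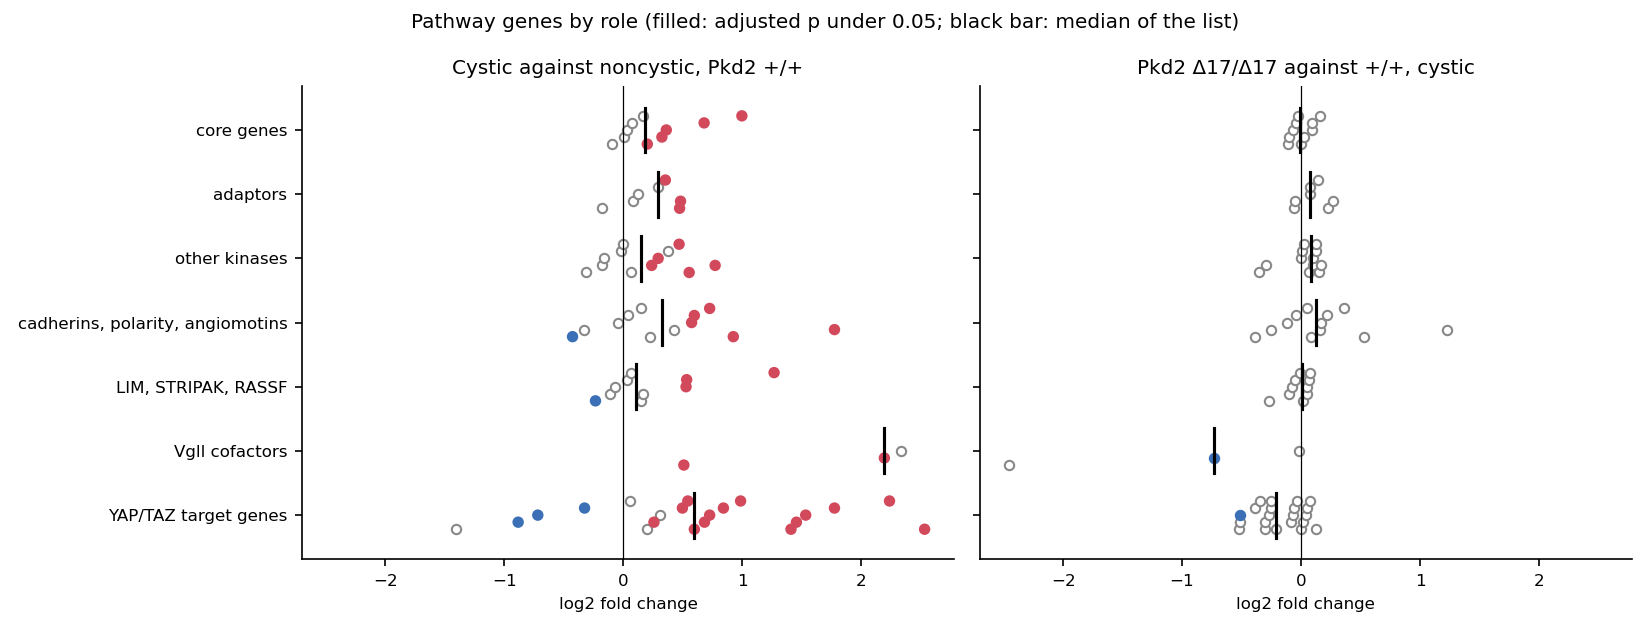
Log2 fold change of every tested gene of the core and of each list of pathway genes (rows), for cystic against noncystic kidneys with intact Pkd2 (left) and for removal of the Pkd2 motif in cystic kidneys (right), on the same axis; filled points have an adjusted p under 0.05 (red higher, blue lower) and the black bar is the list's median. The left panel holds filled points in every list, and the right panel holds 2, Vgll3 and F3.

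The TEAD-binding letters GGAATG or their complement CATTCC, read on both strands, were sought from 250 bases before to 50 bases after annotated starts (RefSeq promoters, GRCm38.p6). Of the 7 core genes with a promoter in that table, 4 held them, namely Yap1, Wwtr1, Tead3 and Lats2, beside 16.6% of 27025 genes and 14.7% of 32851 promoters, and 6 of 14 targets. Wwtr1, Tead3 and Lats2 have more than 1 promoter, which gives more letters to search. Windows from both coactivators and from the core gene with the most matches, Tead3, are shown with the 6 letters in capitals.
Yap1: agtctgcaGGAATGtagcgacg
Wwtr1: aactcaaaGGAATGcagatagg
Tead3: acgagcgaGGAATGgggtgcgc
Ankrd1: ctgccaaaGGAATGaccctctc
Ankrd1 is the classical target with the largest rise. These windows lie at chr9:8004724-8004745, chr3:57576033-57576054, chr17:28350974-28350995 and chr19:36120041-36120062, all on the minus strand. Of the core genes that rose with intact Pkd2, Wwtr1 and Tead3 held these letters and Tead2 and Stk4 did not. Of those that did not pass the test, Yap1 and Lats2 held them and Lats1 did not. Tead1, Tead4 and Stk3 were not in that table.

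Summed levels of cell type markers and of cell cycle genes also differed between cystic and noncystic mice. Summed over 10 proximal tubule markers, the level was 9908 to 11728 CPM in noncystic and 3442 to 4983 CPM in cystic Pkd2 +/+ mice, and all 10 fell. The 7 macrophage markers rose, from 126 to 136 CPM in sum to 302 to 424 CPM, as did the 9 cell cycle genes, from 254 to 333 CPM to 638 to 733 CPM. Fibroblast and mural cell markers summed to 1509 to 1692 CPM and 2425 to 3724 CPM, with 5 of 9 higher and 2 lower. Collecting duct markers summed to 1616 to 1714 CPM and 2300 to 3981 CPM, with 4 of 10 higher and 3 lower. The other lists were lower in sum: thick limb and distal tubule (3499 to 4372 CPM and 1947 to 2583 CPM, with 6 of 8 lower and 1 higher), podocyte (595 to 704 CPM and 341 to 399 CPM, 5 of 6 lower and 1 higher) and endothelium (652 to 726 CPM and 468 to 508 CPM, 4 of 7 lower). No marker was at 0 in any mouse. In cystic Pkd2 Δ17/Δ17 mice the sums were 4594 to 6164 CPM for proximal tubule and 3588 to 3767 CPM for thick limb and distal tubule. They were 232 to 294 CPM for macrophages and 557 to 667 CPM for the cell cycle. The macrophage sums lay between those of the noncystic and the cystic Pkd2 +/+ mice. The thick limb and distal tubule sums lay above those of the cystic Pkd2 +/+ mice, within the range of the noncystic Pkd2 +/+ mice. The sums of every other list overlapped those of the cystic Pkd2 +/+ mice. The part of these shifts in the levels of Tead2, Tead3, Tead1, Stk4 and Wwtr1 was not tested.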

How the data were processed

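Reads were trimmed by the authors (Trim Galore 0.6.3), aligned to GRCm38 with STAR 2.5.3a and counted per gene by STAR on Ensembl gene models, and the raw counts of the 12 kidneys were deposited. The strand setting is not given in the sources used here. From the counts as deposited, genes with an average log2CPM (prior count 2) of at least -3 were kept, scaled by TMM and tested with edgeR 4.0.16 (glmQLFit and glmQLFTest, R 4.3.3), with 1 mean per group over all 12 mice and 8 residual degrees of freedom. The comparisons were cystic against noncystic within each Pkd2 genotype, deletion against intact motif within each Pkd1 state, and their interaction, with Benjamini-Hochberg adjustment over all genes and a threshold of 0.05. Scripts were tested on simulated data. Alternatives were other scalings, DESeq2 1.42.0, limma 3.58.1, other filters, the compared groups alone, Xist as a covariate, and each mouse left out. The limma fit was limma-trend, the test named by the authors, with library totals as the scaling and a prior count of 3. The members, the gene lists and the tests were chosen with earlier results of these data known. Beyond the 10 core genes, the text names per list the 4 higher and 4 lower genes without overlap and with the smallest adjusted p in cystic against noncystic mice with intact Pkd2, every list gene called for the deletion, and the 3 genes most like Yap1, Wwtr1 and the core gene of smallest p, of which 1 is not reported here. Exon lengths and 3′-UTRs came from GENCODE M21 models of GRCm38, a later release than the models used for counting, and miRNA and promoter sequences from RefSeq (GRCm38.p6). Mice were separate animals, and with 3 per group an exact permutation test cannot go below 0.10. No sample column was left out.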

Additional observations from a re-analysis of the deposited data

How the results depend on the processing

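Of 990 member fold changes recomputed under 20 alternatives, 902 kept their direction and side of the threshold, 18 lost a call, 14 gained one and 56 changed sign, none of which was a called value. The 8 alternatives other than leaving out a mouse gave 4 to 8 core genes called with intact Pkd2 and 4 to 8 with Pkd2 Δ17/Δ17; 8 came from library totals and from limma-trend with library totals in both. Leaving out a mouse gave 3 to 5 and 2 to 4. Core genes called for the deletion stayed at 0 in all alternatives. With the deletion in cystic kidneys, regulators called went from 1 to 3 (DESeq2, Xist covariate) or 0 (limma-trend) and to 0 to 1 without a mouse; targets went from 1 to 2 (DESeq2), 6 (no cutoff), 0 (compared groups only) or 3 (Xist covariate), and to 0 to 2 without a mouse. Signs changed as follows. For cystic against noncystic with intact Pkd2, Lats2 became 0.0676 with library totals in edgeR and 0.0635 with limma-trend, which also used library totals. Tead4 became -0.0210 with DESeq2's size factors, -0.0211 with DESeq2, -0.0070 with filterByExpr and -0.0057 with the compared groups only. For the deletion in cystic kidneys, Tead1 became 0.0047 with library totals, 0.0015 with limma-trend, 0.0040 with filterByExpr, 0.0007 with the compared groups only and 0.0452 with the Xist covariate, which also made Yap1 -0.0034. The interaction of Stk3 became 0.0413 with the Xist covariate. Leaving out a mouse also turned the sign of uncalled values. With intact Pkd2, cystic against noncystic, Yap1 ran from -0.0297 to 0.0928 and Tead4 from -0.1506 to 0.1489. With Pkd2 Δ17/Δ17, Tead4 ran from -0.0081 to 0.3077 and Lats2 from -0.0023 to 0.1321. For the deletion in cystic kidneys, Yap1 ran from -0.0372 to 0.0855, Tead1 from -0.0789 to 0.0714, Tead2 from -0.0694 to 0.0108, Stk3 from -0.1084 to 0.0022 and Stk4 from -0.0789 to 0.0066. In noncystic kidneys, Wwtr1 ran from -0.0692 to 0.0088, Tead1 from -0.1749 to 0.0533, Tead4 from -0.1004 to 0.1802, Lats2 from -0.1321 to 0.0106, Stk3 from -0.1528 to 0.0056 and Stk4 from -0.0124 to 0.0658. For the interaction, Tead1 ran from -0.0545 to 0.1761, Tead4 from -0.0204 to 0.3024, Lats1 from -0.0275 to 0.0512 and Stk3 from -0.0726 to 0.0876. No paired analysis was possible because no groups share a mouse number. The cause of each change was not tested. Tead4, with 69 to 125 reads per mouse, was the core gene with the fewest reads and the widest interval.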
